A study of Rattus norvegicus with 13 samples.

Results

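Pitx1, Tbx1, Eya1, Isl1, Pax9, Nkx2-5, Foxa1 and Foxa2 are transcription regulators that pattern the embryonic pharynx and pituitary. Their transcripts were examined in the thyroid of young adult rats. The 8 genes were taken by symbol from the 36174 gene symbols of the array, with every probe kept, which gave 12 of the 45598 gene probes. The set was chosen by a measured value, the difference of the brighter Pitx1 probe between the groups, so for Pitx1 that comparison is given below as a description without a test.

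The thyroids came from male Wistar rats, collected 30 days after weaning and 51 days after birth. In the KI-treated group (n = 6), the mother had received potassium iodide at 1 mg per kg per day by gavage for 8 days from gestational day 9, and in the control group (n = 7) the mother had received saline. The comparison asks whether exposure before birth to this iodine thyroid blocking agent leaves a difference in the gland of the offspring. RNA of each thyroid was labelled with Cy3 and hybridised to a one-colour Agilent array, 13 arrays in all, and levels are given as log2 of the processed spot signal relative to the 75th percentile of the same array. The labels do not name litters, so each array was treated as an independent animal and p-values measure the spread between these arrays.

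The thyroid forms from the floor of the embryonic pharynx, while the pharyngeal pouches beside it give rise to the parathyroids, the thymus and the ultimobranchial bodies that bring the calcitonin-secreting C cells. Tbx1, a T-box factor, patterns the pharyngeal arches and pouches. Eya1, a transcriptional coactivator, and Pax9, a paired-box factor, are needed for organs that derive from the pouches. Isl1, a LIM homeodomain factor, and Nkx2-5, a homeodomain factor, mark pharyngeal mesoderm and are best known for heart development. Pitx1 is a homeodomain factor of the oral ectoderm and the anterior pituitary, and Foxa1 and Foxa2 are forkhead factors of the endoderm.

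A gene with several probes can give as many different answers, so the place of each probe is described first. Coordinates are those of the array design as the scanner files give them, for the build named rn4 in the file headers, and they were not checked against a genome. The Pitx1 probes lie 835 bases apart in the same transcript. The brighter one, A_43_P15339, covers chr17:14839404-14839463 on the plus strand and starts at base 1356 of the transcript. The dimmer one, A_44_P1086749, covers chr17:14840239-14840298 and starts at base 2191. Their GC contents are 53.3% and 40.0%. The first 30 of the 60 bases of each are shown because the result for Pitx1 depends on which is read.
Pitx1 A_43_P15339: ctgcctccaggttggttttgtgtttgcttt
Pitx1 A_44_P1086749: taaatctgtctatatcgacttgtccatgta

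Both Nkx2-5 probes cover nearly the same stretch of chromosome 10, chr10:16608544-16608603 and chr10:16608570-16608629, on the plus strand. They are shown whole because they measured the same place and both stayed in the background. Capitals mark the 34 bases that both cover, in which they differ at 1 base.
Nkx2-5 A_43_P12886: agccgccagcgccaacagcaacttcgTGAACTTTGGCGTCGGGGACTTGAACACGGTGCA
Nkx2-5 A_44_P1160044: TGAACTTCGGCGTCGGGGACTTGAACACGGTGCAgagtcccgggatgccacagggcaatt

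The Foxa1 probes start 693 bases apart in 1 transcript, whereas the array design places them 29049 bases apart on the minus strand of chromosome 6 (chr6:77976415-77976474 and chr6:78005464-78005523). The Eya1 probes belong to different predicted transcripts on the plus strand of chromosome 5, with the brighter at chr5:4278306-4278365 and the dimmer at chr5:4264595-4264654. The other members have 1 probe each. Tbx1 is measured at chr11:84410570-84410629, Isl1 at chr2:48052237-48052296 on the minus strand, Pax9 at chr6:77124433-77124492 and Foxa2 at chr3:136739040-136739099 on the minus strand. For 10 of the 12 probes the transcript carries the same symbol in RefSeq, and the transcripts of both Eya1 probes were not matched.

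Between 34840 and 41050 of the 58717 gene spots of an array were well above background by the flag of the scanner software. Control 4 and control 6 stand apart, with the lowest 75th percentiles of gene spot signal (1489 and 1253, against 1579 to 2447 in the others) and the lowest array weights in limma (0.17 and 0.26). Each difference of a member is therefore also given without them. The tissue label was checked against markers. Tg and Slc5a5, which make thyroglobulin and the iodide transporter, were detected on 13 of 13 arrays, and Slc26a4, which makes the anion exchanger pendrin, was detected on 0. Calca, Calcb and Chga of the C cells and Pth and Casr of the parathyroid were also detected on 13 arrays. The dissected tissue therefore held transcripts of both neighbouring endocrine cell types, and in such bulk RNA fewer cells of a type and less RNA per cell cannot be told apart.

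Of the 8 patterning factors, 6 were expressed in every thyroid. Pitx1, Tbx1, Eya1, Isl1, Pax9 and Foxa2 each had a probe well above background on 13 of 13 arrays. Both Pitx1 probes passed on 13 arrays. Over the whole array, about 20730 of the 45598 gene probes were well above background on all 13 arrays. Of the 12 member probes, both of Pitx1 and 5 others were. The dimmer Eya1 probe passed on 1 array only, KI-treated 4. Foxa1 lay near the detection limit, with its brighter probe well above background on 7 arrays (3 KI-treated, 4 control) and its other probe on 4 (2 KI-treated, 2 control). Nkx2-5 was well above background on 0 arrays with either probe. Under a looser criterion, a signal over the 95th percentile of the negative control spots, Foxa1 was detected on 12 and 8 arrays and Nkx2-5 on 0 and 1.

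**Figure D1:**
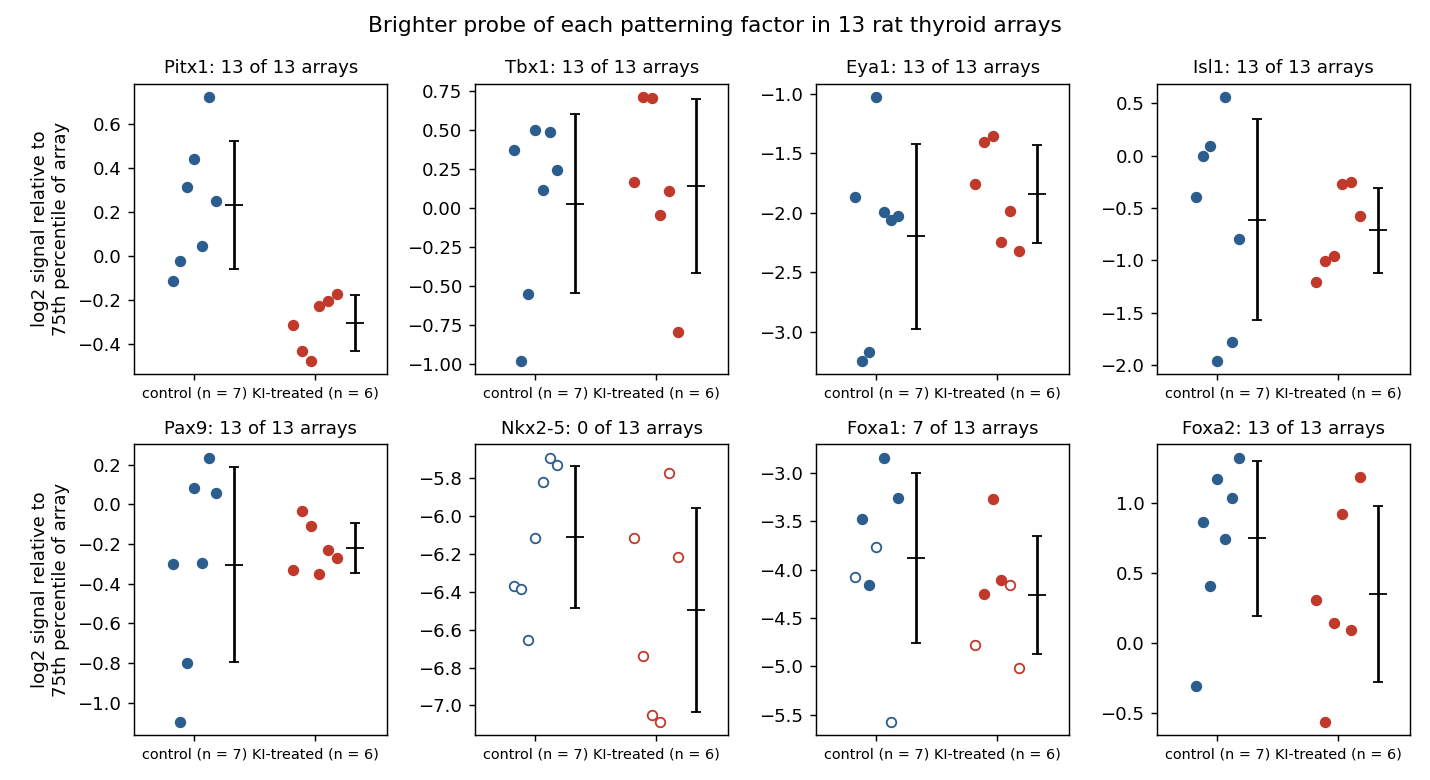
Level of the brighter probe of each patterning factor on each array, in log2 above or below the 75th percentile of its array, with a separate axis for every gene. Points are arrays (blue control, red KI-treated, open where the probe was not well above background), and bars give the mean and SD. Only for Pitx1 among the plotted genes that were detected do the groups not overlap, and Nkx2-5 has open points only. The Pitx1 difference is the value for which the genes were chosen, and nothing is read from it. Of the 25659 probes measured on every array, the groups did not overlap for 0.581%.

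None of the 25722 probes tested passed an adjusted p of 0.05 in limma between the groups (0 probes, 0% called), while 3271 (12.7%) had an unadjusted p under 0.05. None of the 6 other member genes that could be tested (0 of 6) passed the adjusted threshold. Data of this size were simulated with every probe drawn independently and 200 of 25659 probes changed. There, 66.5% of probes changed by 1 on the log2 scale were recovered and 1.5% of those changed by 0.5. Measured probes can vary together, so these shares need not hold for the arrays themselves. The median difference over all tested probes was -0.08, and 60.7% of them were lower in the KI-treated group (52.6% after quantile normalization and 70.6% after normexp), which is the background for every count of directions below.

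Pitx1 on its brighter probe lay at -0.48 to -0.17 in the KI-treated group (median -0.27) and at -0.11 to 0.72 in the control group (median 0.25). Every KI-treated array was below every control array, and control 6 and control 4 were the highest. The group means were -0.30 ± 0.13 (SD, n = 6) and 0.23 ± 0.29 (SD, n = 7), a difference of -0.54 on the log2 scale (SE 0.14), or a ratio of 0.69. Of the 25659 probes measured on every array, the groups did not overlap for 0.581%, with the KI-treated group wholly below for 0.323% and wholly above for 0.257%. This is the value for which the genes were chosen, and nothing is read from it. The gap between the highest KI-treated and the lowest control array was 0.06. The groups also did not overlap after quantile normalization (gap 0.06) and after normexp background correction (gap 0.02). Both rescale the same selected values, so they add no support.

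The dimmer Pitx1 probe did not show this separation. It ranged from -4.00 to -2.34 in the KI-treated group (median -2.69) and from -3.52 to -2.01 in the control group (median -2.92), and the groups overlapped over most of their range. The mean difference was -0.06 (SE 0.27). Its direction turned without KI-treated 4, the lowest array (0.17), and without control 7, the highest (0.07), and it was -0.15 without control 4 and control 6. Across the 13 arrays, with the group means subtracted, both probes of this gene had a Pearson r of -0.08, so they did not rank the arrays alike.

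The size of the difference on the brighter probe varied with the scan session. It was -1.03 in scan session 1 (2 KI-treated and 2 control arrays), -0.16 in session 2 (3 and 2) and -0.43 in session 3 (1 and 3). Session 1 holds both control 4 and control 6. Without these arrays the difference was -0.40, and leaving out any single array kept it between -0.59 and -0.46. With the slide as a block it was -0.53. Of the skeletal muscle markers, 10 of the 10 tested had the lower mean in the KI-treated group. Their median difference was -1.29 and the smallest adjusted p in limma was 0.363, so none passed. Genes of the same tissue can vary together, so these are not 10 separate observations. The mean level of the 9 muscle markers detected on all arrays was -1.36 to 2.14 in the KI-treated group and 1.01 to 3.82 in the control group, and Pax7 was detected on 0 arrays. The part of muscle tissue in the Pitx1 difference was not tested. Within groups, Pitx1 and the muscle level had a Pearson r of -0.29.

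**Figure D2:**
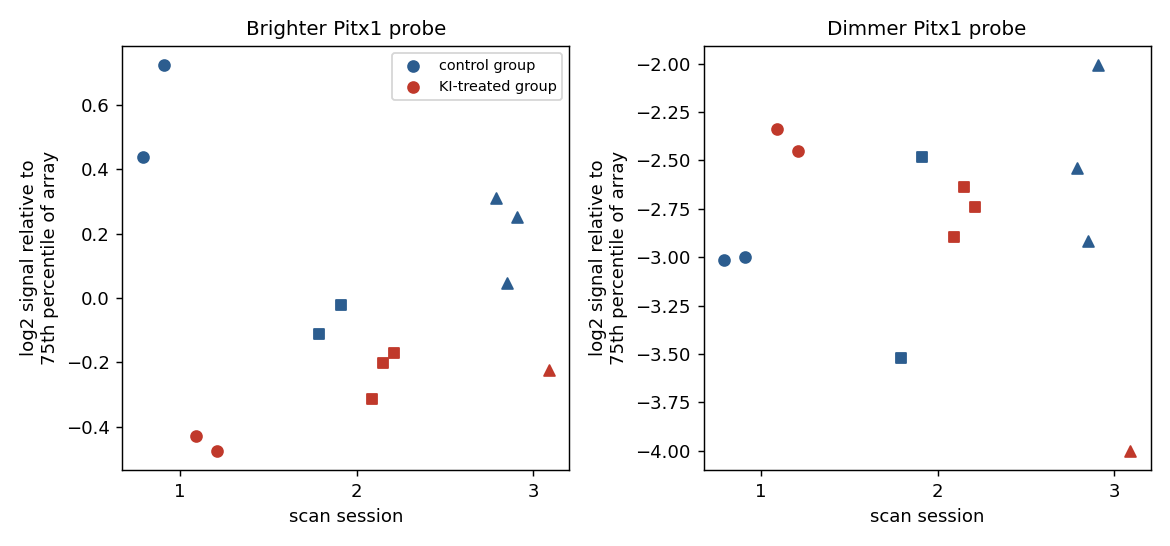
Level of the brighter (left) and dimmer (right) Pitx1 probe, in log2 above or below the 75th percentile of its array, on the 13 arrays in scan sessions 1 to 3 (blue control, red KI-treated, 1 point per array). On the brighter probe the differences within sessions 1, 2 and 3 are -1.03, -0.16 and -0.43. Their direction follows from the groups not overlapping on this probe, the value for which the genes were chosen. On the dimmer probe the direction changes between sessions (0.61, 0.24 and -1.51).

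Among the pharyngeal pouch factors, Tbx1 lay at -0.80 to 0.72 in the KI-treated group (median 0.14) and at -0.98 to 0.50 in the control group (median 0.25). The lowest arrays were control 2, KI-treated 6 and control 3, so low values occurred in both groups. The difference was 0.11 (SE 0.29, limma adjusted p = 0.833). It was 0.30 without control 4 and control 6 and -0.054 without control 2.

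Eya1 lay at -2.32 to -1.35 in the KI-treated group (median -1.87) and at -3.24 to -1.02 in the control group (median -2.03) on its brighter probe. Control 2 and control 3 were again the lowest, and the difference was 0.35 (SE 0.32, limma adjusted p = 0.571). It ranged from 0.18 without control 2 to 0.55 without control 4, and was 0.62 without control 4 and control 6 and 0.11 after normexp. Pax9 lay at -0.35 to -0.03 in the KI-treated group (median -0.25) and at -1.09 to 0.24 in the control group (median -0.30). The KI-treated arrays sat inside the range of the controls, of which control 2 and control 3 were the lowest. The difference of Pax9 was 0.08 (SE 0.20, limma adjusted p = 0.825), and it was 0.27 without control 4 and control 6 and -0.049 without control 2.

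Isl1 lay at -1.20 to -0.25 in the KI-treated group (median -0.77) and at -1.96 to 0.56 in the control group (median -0.40). Its lowest values were on control 4 and control 6, the arrays of low signal, and its highest on control 5. The difference was -0.10 (SE 0.38, limma adjusted p = 0.889), and without control 4 and control 6 it was -0.60 (limma adjusted p = 0.494).

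Foxa2 lay at -0.56 to 1.19 in the KI-treated group (median 0.23) and at -0.31 to 1.33 in the control group (median 0.87). The 2 lowest arrays were KI-treated 2 and control 1, and the 2 highest were control 7 and KI-treated 6. The difference was -0.40 (SE 0.30, limma adjusted p = 0.513), and without control 4 and control 6 it was -0.26. Foxa1 on its brighter probe lay at -5.01 to -3.27 in the KI-treated group (median -4.21) and at -5.57 to -2.84 in the control group (median -3.77), with arrays not well above background in both groups. Its difference was -0.38 (SE 0.38, limma adjusted p = 0.603), and without control 4 and control 6 it was -0.70 (adjusted p = 0.531). For Nkx2-5 no difference is given because both groups were in the background.

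Although the groups did not separate these factors, several of them varied together from animal to animal. With the group means subtracted, Tbx1 and Eya1 had a Pearson r of 0.87, Tbx1 and Pax9 of 0.79 and Eya1 and Pax9 of 0.81 over the 13 arrays. These are descriptions, and the points share the array, its labelling and the dissection. Isl1 ran the other way, with r of -0.55 to Tbx1, -0.64 to Eya1 and -0.69 to Pax9. Pitx1 on its brighter probe was not close to Tbx1 (r = 0.06) or Eya1 (r = 0.06), and had r of 0.55 to Foxa2.

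The members were next set against the mean level of 10 lists of cell type markers, using the list genes detected on every array. The airway epithelium and cartilage lists were left with 1 gene each and the thymus and lymphocyte list with 4, so these tissues were poorly covered. There were 70 pairs of 7 members and 10 lists. Each was tested by permutation of the arrays within groups (100000 permutations, two-sided) and adjusted over the 70 pairs, and 3 passed an adjusted p of 0.05.

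Tbx1 and Pax9 followed the parathyroid list, a list of 5 genes that includes Pth (parathyroid hormone), Casr (the calcium-sensing receptor), Chga and Pax1. For Tbx1 the Pearson r was 0.90 (permutation p = 2e-05, adjusted p = 0.0014) and Spearman's rho 0.87 (adjusted permutation p = 0.00583). For Pax9 the Pearson r was 0.89 (permutation p = 7e-05, adjusted p = 0.00245) and rho 0.88 (adjusted permutation p = 0.00583). Control 2 had the lowest parathyroid level (3.64) and control 3 the next (4.54), against 4.59 to 5.44 on the other arrays. After quantile normalization Pax9 no longer passed (r = 0.79, adjusted permutation p = 0.0595). Without these 2 arrays, r was 0.83 for Tbx1 and 0.70 for Pax9. Eya1 had an r of 0.80 to the same list but missed the threshold (permutation p = 0.00288, adjusted p = 0.0504), and its r was 0.60 without the same 2 arrays.

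The relation did not rest on Pax1, which resembles Pax9, or on Chga, which C cells share. With both left out, r was 0.88 for Tbx1, 0.94 for Pax9 and 0.81 for Eya1. Gene by gene, Pax9 had an r of 0.97 to Casr and 0.63 to Pth, and Tbx1 had an r of 0.80 to Casr and 0.50 to Pth. With slide means also subtracted, r was 0.75 for Tbx1 and 0.76 for Pax9. The scan sessions held 4, 5 and 4 arrays, too few for a value within each.

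Foxa2 followed the C cell list of 12 genes, with a Pearson r of 0.88 (permutation p = 0.00025, adjusted p = 0.00583) and a rho of 0.90 (adjusted permutation p = 0.00583). After quantile normalization it no longer passed (r = 0.80, adjusted permutation p = 0.0595). Without KI-treated 3 and control 7, the arrays farthest from the median of the list, r was 0.92, and with slide means subtracted it was 0.96. The genes of this list were not alike. Foxa2 had an r of 0.90 to Chgb, a secretory granule protein, 0.71 to Calcb, 0.71 to Pcsk1, a prohormone convertase, 0.24 to Calca, which encodes calcitonin, and -0.28 to Chga. Foxa2 had an r of -0.18 to the parathyroid list, and Tbx1 an r of -0.40 to the C cell list (permutation p = 0.198, adjusted p = 0.757). Pitx1 reached its highest r with the C cell list (0.46, permutation p = 0.118, adjusted p = 0.75). Its r with the thyroid follicle list was nearly the same (0.45, permutation p = 0.167, adjusted p = 0.757). Neither Isl1 nor Foxa1 had a pair that passed. Isl1 ran against the parathyroid list, with an r of -0.62 (adjusted permutation p = 0.512) and a rho of -0.79 (adjusted permutation p = 0.0594).

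**Figure D3:**
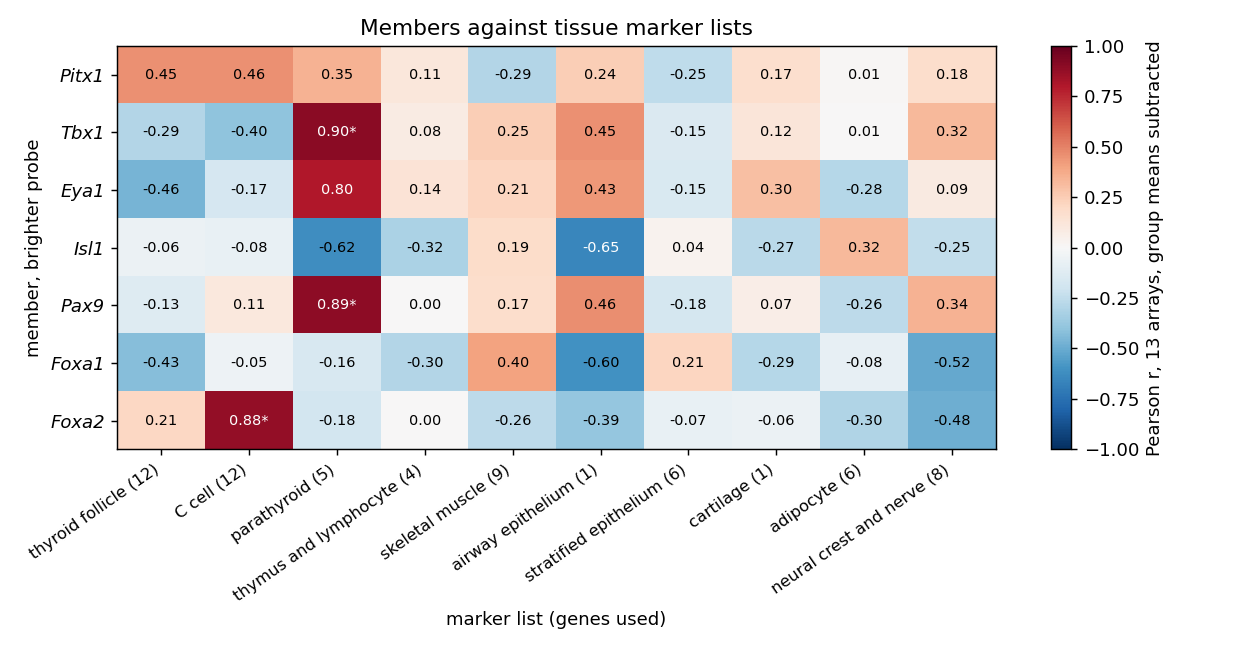
Pearson r over 13 arrays, with group means subtracted, between the brighter probe of each detected member (rows) and the mean level of each marker list (columns, with the number of genes used), from blue (-1) to red (1). The 3 pairs with an adjusted permutation p under 0.05 carry an asterisk: Tbx1 (0.90) and Pax9 (0.89) with parathyroid, and Foxa2 (0.88) with C cell markers.

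**Figure D4:**
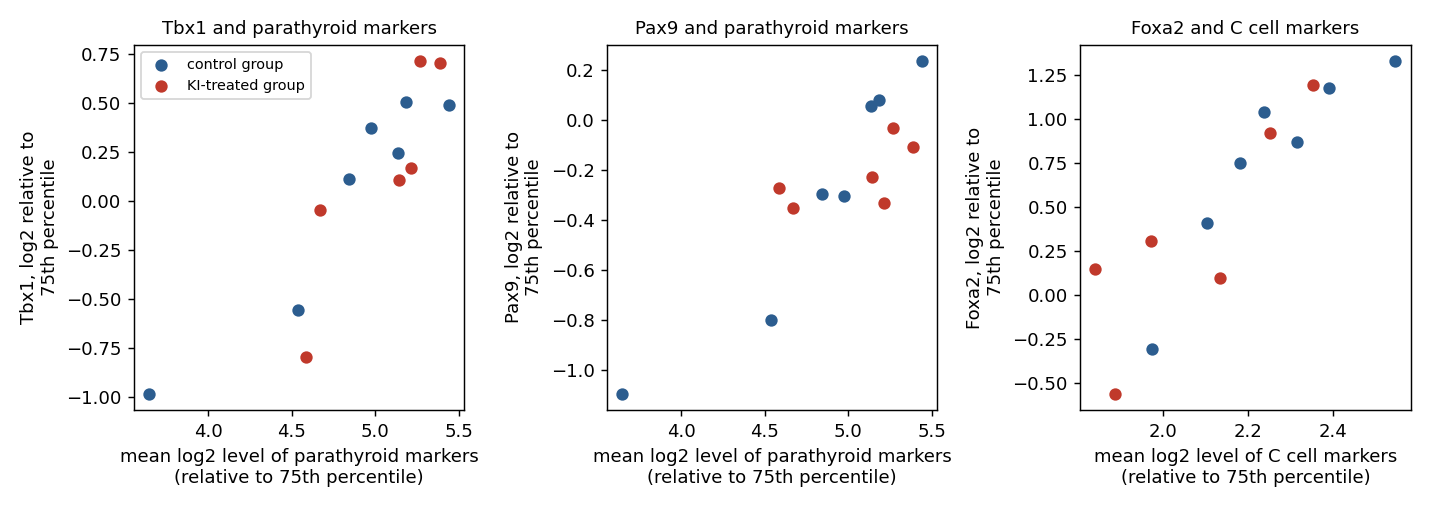
Level of Tbx1, Pax9 and Foxa2 (vertical axes) against the mean level of the parathyroid or C cell markers (horizontal axes), both in log2 above or below the 75th percentile of its array, with 1 point per array (blue control, red KI-treated). Control 2, at 3.64 on the parathyroid axis, is the point at the lower left of the first 2 panels.

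The levels of the lists themselves are given for comparison. The parathyroid level was 4.59 to 5.39 in the KI-treated group and 3.64 to 5.44 in the control group, and 5 of its 6 tested genes were higher in the KI-treated group (median difference 0.36). The C cell level was 1.84 to 2.35 and 1.97 to 2.55, with 10 of 12 genes lower (median -0.26). Thyroid follicle markers had 10 of 12 tested genes lower (median -0.15), adipocyte markers 6 of 8 (median -0.28), airway epithelium markers 6 of 6 (median -0.42) and cartilage markers 4 of 4 (median -0.17). Thymus and lymphocyte markers had 5 of 6 higher (median 0.26), but without KI-treated 1, where their mean level was 0.98 against -1.42 to -1.08 on the other KI-treated arrays, 5 of 6 were lower (median -0.27). Stratified epithelium markers 5 of 7 higher (median 0.15) and neural crest and nerve markers 4 of 8 higher (median 0.17). No gene of any list passed the adjusted threshold in limma, and the median over all tested probes was -0.08. After quantile normalization, thyroid follicle markers had 7 of 12 lower (median -0.023).

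For each member detected on all arrays, the named genes of the most similar pattern, at most 3, were taken from 13783 candidate probes by Pearson r over the 13 arrays with group means subtracted. Tbx1 was close to Piwil2 (r = 0.95) and Acsl4 (0.94), and Pax9 was nearest to Casr (0.97), Jam3 (0.96) and Abcb10 (0.96). Foxa2 was nearest to Klf14 (0.99), Hoxb7 (0.97) and Fbxl16 (0.96). Eya1 was nearest to Cd200 (0.92), Lrrn2 (0.92) and C1r (0.90). Pitx1 was nearest to Tbx21 (0.96), Hes7 (0.95) and Ptp4a1 (0.95), and Isl1 to Yy1 (0.94), Ik (0.93) and Sbds (0.93).

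Related factors of the same regions were examined as a background to the members. Of 43 pharyngeal patterning genes, 41 had a probe, 15 were detected on every array, 5 on 0 arrays and 24 were tested. The KI-treated group had the higher mean for 14 of these and the lower mean for 10, 0 passed the threshold and the median difference was 0.03, whereas after normexp 15 of 24 had the lower mean and the median was -0.11. The smallest p belonged to Gcm2, the parathyroid master regulator, at -2.41 ± 0.47 (SD, n = 6) against -3.50 ± 0.83 (SD, n = 7), a difference of 1.09 (SE 0.34, limma adjusted p = 0.353). Its probe was well above background on 11 arrays only (6 KI-treated, 5 control), so some control values lay near the detection limit. Next by p were Gata3 with a difference of 0.65 (SE 0.30, limma adjusted p = 0.390) and Sox2 with -0.22 (SE 0.12, limma adjusted p = 0.414), the latter with 1 array missing.

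The pituitary factors were detected in part. Of 20 related pituitary factors, 19 had a probe, 8 were detected on 0 arrays, among them Hesx1 and Lhx4, and 5 on every array. All 8 tested had the lower mean after KI (8 of 8, median -0.13), beside 60.7% of all tested probes, and 0 passed. Pou1f1, the factor of somatotrophs, lactotrophs and thyrotrophs, differed by -0.39 (SE 0.20, limma adjusted p = 0.411), Lhx3 by -0.84 (SE 0.60, limma adjusted p = 0.501) and Tbx19, the factor of corticotrophs, by -0.16 (SE 0.19, limma adjusted p = 0.664). Pou1f1 was well above background on 10 arrays only (5 KI-treated, 5 control), so some of its values lay near the detection limit. Lhx3 was detected on 13 arrays at 0.94 ± 1.43 and 1.78 ± 0.99. Of 11 pituitary hormone and hormone receptor genes, 6 were detected on 0 arrays, including Prl, Tshb and Cga. Pomc differed by -0.40 (SE 0.19, limma adjusted p = 0.393), Lhb by -0.40 (SE 0.21, limma adjusted p = 0.408) and Gh1 by -0.04 (SE 0.29, limma adjusted p = 0.942). Gh1 was well above background on 7 arrays only (4 KI-treated, 3 control).

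The 4 factors that specify the thyroid itself were detected on every array, and 4 of 4 were lower in the KI-treated group by a median of -0.18, with 0 past the threshold. After quantile normalization 3 of 4 were lower, with a median of -0.023. Hhex differed by -0.44 (SE 0.35, limma adjusted p = 0.531), Foxe1 by -0.21 (SE 0.17, limma adjusted p = 0.541) and Nkx2-1 by -0.13 (SE 0.14, limma adjusted p = 0.637). In the Foxa family, Foxa3 was detected on 0 arrays, which leaves Foxa2 as the family member seen in every thyroid.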

How the data were processed

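The 8 genes and all gene lists were chosen with earlier results of these data known. For each array, the authors deposited the scanner output of Agilent Feature Extraction 10.7.3.1, with the fluorescence intensity of every spot after background subtraction and detrending and no normalization between arrays. They also deposited a table of log2 values, whose normalization is not given in the sources used here and which served only as an alternative, and it held 0 columns of other samples. Quality flags (well above background, outlier) were read as deposited. Controls and spots flagged as outliers were removed, spots of a probe were averaged on the log2 scale, and each array was centred on its 75th percentile over probes. A probe was tested if it was well above background on 6 or more arrays, with limma 3.58.1 in R 4.3.3 (lmFit, eBayes, Benjamini-Hochberg adjustment, threshold 0.05), after a check on simulated data. A gene of a list was represented by its brightest probe. Correlations used Python 3.11.15 with numpy 2.4.6. The 6 slides were scanned in 3 sessions (slide 6 held control 7 only). The genes named are the members, the 3 genes of smallest p in each related list, the leading markers of the tissue lists and the 3 nearest genes of each member; Hesx1, Lhx4, Prl, Tshb, Cga, Pax7, Slc26a4, Foxa3 and the list genes set against Tbx1, Pax9 and Foxa2 were named after their values were seen. Some genes that this rule selects are not reported here. Alternatives were other background corrections, scalings and filters, slide, session or replicate number as a block, array weights, a t-test with equal variances, and leaving out arrays.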

Additional observations from a re-analysis of the deposited data

Results flagged for a closer look

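Of 34 sets of values (member probes detected on all arrays and marker list levels, each within 1 group), 3 held an array far from the rest of its group, where chance gives about 1 in 20. The dimmer Pitx1 probe was at -4.00 on KI-treated 4, against -2.89 to -2.34 on the other KI-treated arrays. Thymus and lymphocyte markers averaged 0.98 on KI-treated 1, against -1.42 to -1.08. Skeletal muscle markers averaged 3.82 on control 5, against 1.01 to 2.02 on the other control arrays.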

How the results depend on the processing

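Leaving aside Pitx1, which was not tested, 0 members passed the threshold under each of the 26 alternatives. Pitx1 on its brighter probe differed by -0.59 to -0.40 over them, and nothing is read from the direction, for which the genes were chosen. Over all probes the count past the threshold was 35 (2 higher, 33 lower) with array weights and 0 to 1 when 1 array was left out. The direction of 3 members and of the dimmer Pitx1 probe (-0.18 to 0.17 when 1 array was left out) was not stable: Isl1 differed by 0.049 with the scan session as a block and by -0.33 to 0.094 when 1 array was left out, Tbx1 by -0.054 to 0.30 and Pax9 by -0.049 to 0.17, in both cases lowest without control 2; the cause was not tested. With 75th percentile scaling over spots, Pitx1 differed by -0.46. By the positive and significant flag or the 95th percentile of negative controls, the dimmer Eya1 probe was detected on 2 arrays by either, the dimmer Nkx2-5 probe on 2 or 1, the brighter Foxa1 probe on 12 by either and the other on 11 or 8. After quantile normalization 1 of the 70 pairs passed, Tbx1 with parathyroid (r = 0.88), while Pax9 had r = 0.79 and Foxa2 r = 0.80, each with an adjusted permutation p of 0.0595; after normexp 3 passed. Leaving out 1 array kept r at 0.88 to 0.92 for Tbx1, 0.78 to 0.92 for Pax9 and 0.84 to 0.91 for Foxa2, and without control 4 and control 6 the values were 0.89, 0.85 and 0.88.

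The groups share replicate numbers 1 to 6, but same-numbered arrays did not deviate together (r of -0.11 to 0.07, and 0 of 6 correlated best with their own number). What the numbers stand for is not given in the labels. A pairing with little effect on the whole profile would not show in this comparison. With the replicate number as a block, 0 probes passed, Pitx1 differed by -0.53 on its brighter and by 0.07 on its dimmer probe, and no call changed for the other members. The filter on all arrays leaves out Foxa1. Detection near background limits Foxa1 and Nkx2-5.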
